A study of Mus musculus with 15 samples.

Results

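The arrays described here are the 9, of 15 in the series, on which lipopolysaccharide (LPS)-activated macrophages had received a hydroxylated docosahexaenoyl ethanolamide (HDHEA), set against the 3 arrays of LPS-activated cells that had received only the solvent. They were taken by their treatment label. To describe direction, each HDHEA array was set against the vehicle array of its own experiment. The tests, SEs and intervals compare group means without that pairing, except where a block is named. The question is what the HDHEA treatments share: 3 arrays carry 13-HDHEA, 3 carry 16-HDHEA and 3 carry both. All cells were RAW264.7, a mouse macrophage line transformed by Abelson leukaemia virus, so that every sample is the same cultured line rather than a primary macrophage.

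The medium of adherent cells was replaced by medium with 0.1% ethanol as vehicle, 5.0 µM 13-HDHEA, 5.0 µM 16-HDHEA or 2.5 µM of each. After 30 min LPS was added at 1.0 µg/mL, and RNA was taken at 24 h. A further group of 3 arrays received the vehicle and buffer in place of LPS, and serves here only to show the level before activation. Replicates 1, 2 and 3 of every group carry the same experiment identifiers, and are called experiments 1, 2 and 3. No LPS-free cells received an HDHEA, so its effect on resting cells cannot be read from these groups.

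Docosahexaenoyl ethanolamide is the amide of the omega-3 fatty acid DHA with ethanolamine, and belongs to the N-acyl ethanolamines, the family of the endocannabinoid anandamide. Cyclooxygenase-2 can oxygenate it, and 13-HDHEA and 16-HDHEA are products that differ in the carbon that carries the hydroxyl group. LPS acts through Toll-like receptor 4, which drives cytokine genes through NF-kB and, through the adaptor TRIF, interferon-beta, whose receptor then switches on a second wave of antiviral genes.

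RNA was measured on whole-transcript arrays, and levels are log2 values, so that a difference of 1 is a doubling. Of 22180 genes with a probe set of their own, 15468 exceeded the 40th percentile of an array on at least 3 arrays and were tested. All 10 macrophage markers with a probe set lay above that percentile on all 12 LPS arrays, while none of the defining lymphocyte markers (4 with a probe set) or neutrophil markers (4) did so. Of the defining fibroblast markers 4 of 6 and of the epithelial and endothelial ones 4 of 7 also lay above it there, at list means of 3.57 to 3.94 and 4.04 to 4.32 on the HDHEA arrays against 3.73 to 3.85 and 4.10 to 4.26 on the vehicle arrays. These values come from whole cultures, in which fewer cells of a type and less RNA per cell cannot be told apart. LPS alone raised 2089 genes and lowered 2527. Among the 12 LPS arrays, experiment accounted for 33.1% of the squared deviations over genes and treatment group for 22.5%, of which the pooled HDHEA difference made up 8.12 percentage points. With an equal share for each degree of freedom these would be 18.2%, 27.3% and 9.09%.

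No gene passed the test when the 3 HDHEA treatments were averaged and compared with vehicle. 0 of 15468 genes (0%) had an adjusted p under 0.05 in limma, where the lowest was 0.40, and 586 genes (3.79%) had an unadjusted p under 0.05. The differences were small: 40 genes exceeded 0.5 in either direction and 0 exceeded 1. The 95% interval of the difference lay within 0.5 of zero for 13677 genes (88.4%) and within 1 for 15404 (99.6%), so that for those genes a shared change beyond a doubling or halving lies outside the interval, while for 64 genes the interval reached 1. With experiment as a block 885 genes (5.72%) had an unadjusted p under 0.05, and again none passed (lowest adjusted p 0.32). Of all tested genes, 7439 (48.1%) lay above zero, with a median of -0.0044.

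A weaker criterion is direction, and 601 genes (3.89%) were higher, or lower, than the vehicle array of their experiment on all 9 HDHEA arrays. 270 of them (1.75% of genes tested) were higher and 331 (2.14%) lower. On 107 genes (0.692%) all 9 HDHEA arrays lay outside the range of the 3 vehicle arrays, 44 above it and 63 below. The 9 differences of a gene rest on only 3 vehicle arrays, so that a single unusual vehicle array moves 3 of them together.

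The 24 genes described next are the 12 in each direction with the smallest p among those with 9 differences of 1 sign, and none of them passed the adjusted test. The 12 higher genes differed by 0.21 to 0.70 and the 12 lower genes by -0.76 to -0.27. On 8 of the higher and 9 of the lower genes the HDHEA and vehicle arrays did not overlap, against 0.692% of all tested genes. The choice by p and direction favours such genes, so this count describes them and adds no support. Many are dim: their median rank over the LPS arrays was the percentile 52.7, against 73.7 for all tested genes, and 10 of 24 (41.7%) lay below the 50th percentile against 21.4% of all tested genes. Smaller p-values were likewise more frequent among dim genes, with an unadjusted p under 0.05 for 6.45% of genes below the 50th percentile and 1.72% above the 75th.

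**Figure D1:**
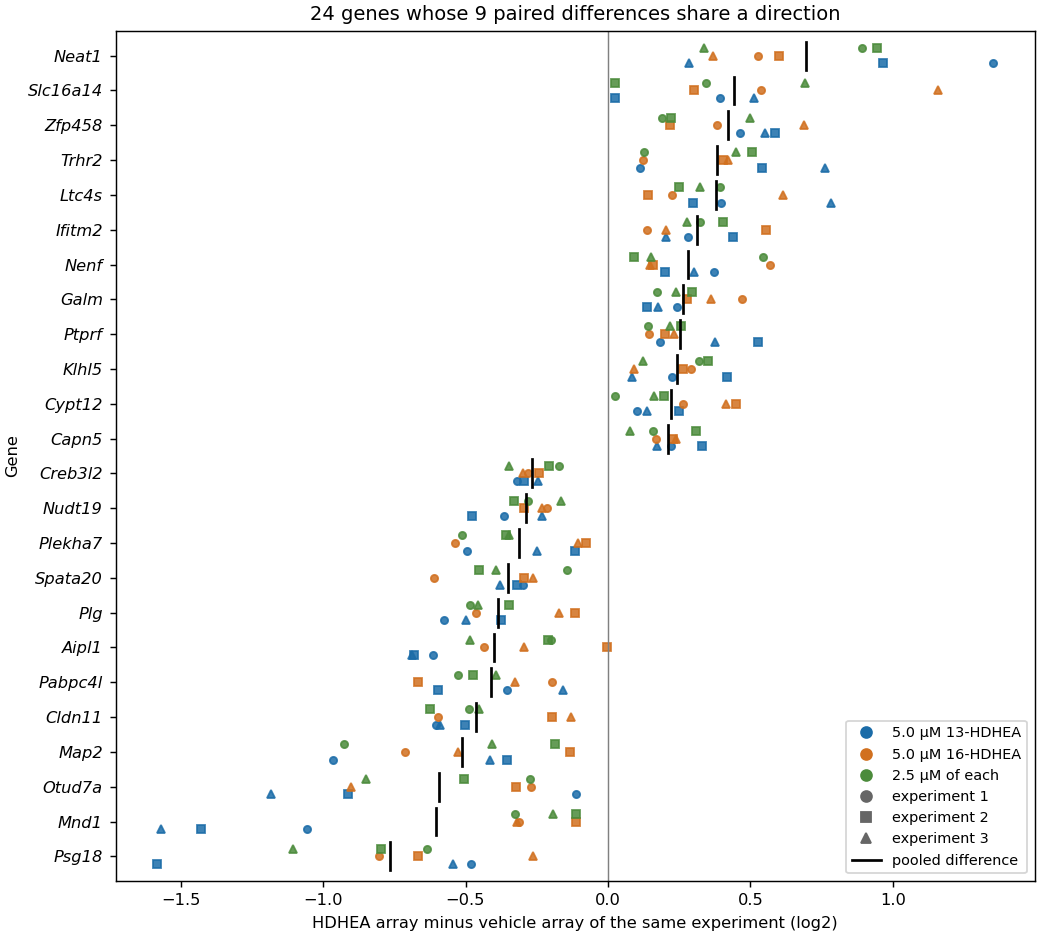
Each point is 1 HDHEA array minus the vehicle array of its experiment (log2, x axis) for 1 of 24 genes (y axis); colour gives the treatment, the symbol the experiment and the black bar the pooled difference. Mnd1 shows 3 points of 13-HDHEA far below the other 6, whereas the points of Neat1 and Ifitm2 mix the treatments.

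Among the higher genes, the brightest were Neat1 and Ifitm2. Neat1 is the long noncoding RNA that scaffolds nuclear paraspeckles. Its level was 9.34, 9.41 and 9.48 on the vehicle arrays, and ran from 9.77 over a median of 10.01 to 10.69 on the 9 HDHEA arrays. All 9 lay above all 3 vehicle arrays, with the highest values on 13-HDHEA arrays of experiments 1 and 2. Pooled, Neat1 was 0.70 above vehicle, with an SE of 0.19 and a 95% interval from 0.30 to 1.10, and limma gave an adjusted p of 0.9999. Without LPS Neat1 varied widely, at 9.15, 10.00 and 9.53.

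Ifitm2 encodes a membrane protein that restricts virus entry. It stood at 9.33, 9.18 and 9.43 with vehicle, and between 9.47 and 9.73 with a median of 9.64 on the HDHEA arrays. Again the groups did not overlap, and the 3 treatments lay close together, at differences of 0.31, 0.30 and 0.33 for 13-HDHEA, 16-HDHEA and the combination. The pooled difference of 0.31 (SE 0.074, 95% interval 0.15 to 0.47) had an adjusted p of 0.98 in limma. LPS itself raised Ifitm2 by 0.47.

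Other higher genes of moderate level were Klhl5, Nenf and Ltc4s. Klhl5, a kelch-family gene, differed by 0.24 (95% interval 0.11 to 0.38). Nenf, which encodes the secreted protein neudesin, differed by 0.28 (0.11 to 0.45), and for both genes all HDHEA arrays lay above the vehicle range. The zinc finger gene Zfp458 had the smallest p of the higher genes, at 4.20, 4.26 and 4.19 with vehicle and 4.39 to 4.88 (median 4.66) with HDHEA, a difference of 0.42 (SE 0.088, adjusted p = 0.98 in limma). Slc16a14, a member of the monocarboxylate transporter family, differed by 0.44 but lay at percentile 26.4 on the vehicle arrays. The predicted gene BC048679, which the rule left out and which is named after its value was seen, had the smallest p of all genes, at a difference of 0.59 (95% interval 0.38 to 0.80, adjusted p = 0.40 in limma) from a vehicle mean of 3.39.

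Among the lower genes, Creb3l2 and Nudt19 were the brightest. Creb3l2, an endoplasmic reticulum-anchored transcription factor of the CREB3 family, was at 7.63, 7.45 and 7.51 with vehicle and between 7.15 and 7.45 (median 7.24) with HDHEA. Its difference was -0.27 (SE 0.073, 95% interval -0.42 to -0.11), with -0.29, -0.27 and -0.24 for 13-HDHEA, 16-HDHEA and the combination. The groups touched, since the highest HDHEA array reached the lowest vehicle array. LPS against no LPS, with the same vehicle arrays, gave 1.63 for Creb3l2. Nudt19, which encodes a coenzyme A hydrolase, differed by -0.29 (95% interval -0.46 to -0.12), with all HDHEA arrays below the vehicle range. Cldn11, a tight junction claudin, differed by -0.46 (-0.70 to -0.23) with no overlap. Otud7a, a deubiquitinase gene (-0.59), and Psg18, a pregnancy-specific glycoprotein gene (-0.76), went from percentiles 48.9 and 59.6 with vehicle to 35.3 and 45.9 with HDHEA, near or below the 40th percentile that the test required. Map2, the microtubule-associated protein gene, differed by -0.51 (95% interval -0.84 to -0.19), and Plg, Aipl1, Pabpc4l, Spata20 and Plekha7 by -0.41 to -0.31, all at vehicle levels between 3.41 and 4.11. Of these Plg, Pabpc4l and Spata20 averaged percentiles 38.6, 36.4 and 36.9 with HDHEA, so that their sizes, like that of Otud7a, rest on signal below the 40th percentile. On the other side the dim genes Trhr2, Galm, Ptprf and Cypt12 and the calpain gene Capn5 differed by 0.21 to 0.38, with Galm and Cypt12 at percentiles 37.0 and 36.5 on the vehicle arrays.

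**Figure D2:**
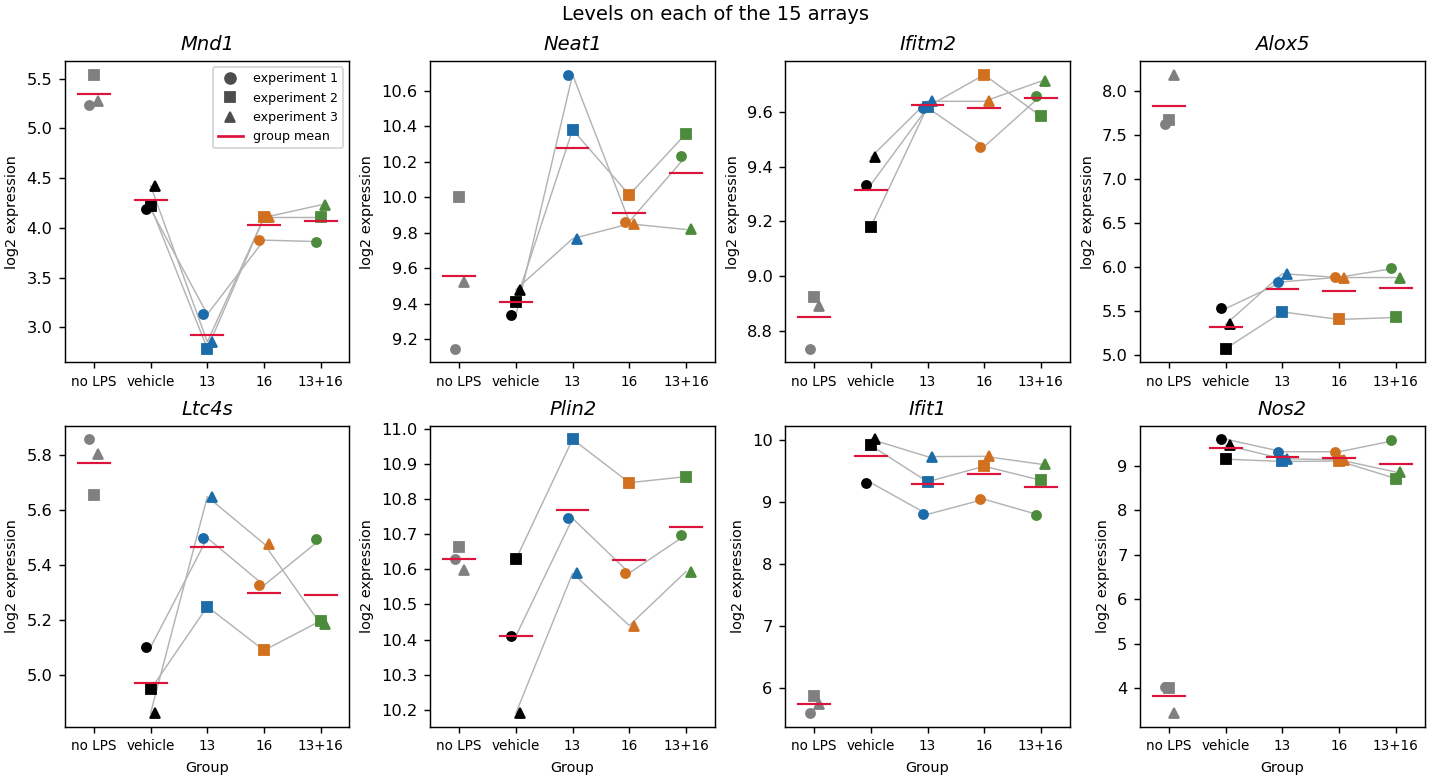
Log2 expression (y axis) of 8 genes on each of the 15 arrays by group (x axis; 13, 16 and 13+16 are the HDHEA groups with LPS). Symbols give the experiment, grey lines join the arrays of 1 experiment and red bars are group means; each panel has its own range. In Ifit1, Plin2 and Alox5 the lines run parallel, so the experiments differ in level while the step from vehicle keeps its direction.

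Mnd1 was the lower gene with the smallest p and the only gene that passed in a comparison of the compounds. It encodes a partner of HOP2 that helps the recombinases pair homologous chromosomes. Its level was 4.19, 4.22 and 4.42 with vehicle, then 3.13, 2.79 and 2.85 with 13-HDHEA, 3.88, 4.10 and 4.10 with 16-HDHEA, and 3.86, 4.10 and 4.23 with the combination. The pooled difference of -0.60 (95% interval -0.83 to -0.38, adjusted p = 0.40 in limma) averages differences of -1.35 for 13-HDHEA, -0.25 for 16-HDHEA and -0.21 for the combination. All 3 arrays with 13-HDHEA lay below their 40th percentile, so the size there is a lower bound: against the mean of that percentile the level with vehicle was at least 2.10-fold higher. With 13-HDHEA left out of the average, and its arrays kept in the fit, the pooled difference was -0.23 (adjusted p = 1 in limma).

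13-HDHEA and 16-HDHEA were compared directly at the same dose and time, which is 1 pair, with p adjusted over all 15468 genes. 13-HDHEA minus 16-HDHEA changed 1 gene (0.00646%), Mnd1 (probe set 17406323), which was lower with 13-HDHEA, at -1.11 (95% interval -1.38 to -0.83, adjusted p = 0.0102 in limma, and 0.0364 with experiment as a block). It was lower in 3 of 3 experiments, at -0.75, -1.32 and -1.25. Against the same bound the level with 16-HDHEA was at least 1.77-fold higher than with 13-HDHEA. The call did not survive without replicate 2 of 13-HDHEA (adjusted p = 0.086) or of 16-HDHEA (0.112), without replicate 3 of 13-HDHEA (0.108) or of 16-HDHEA (0.109), or with the block and only the 12 LPS arrays (0.124, an alternative chosen after seeing the data).

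No other gene passed between the isomers, and the intervals give how large a difference remains possible. The 95% interval of 13-HDHEA minus 16-HDHEA lay within 0.5 of zero for 12031 genes (77.8%) and within 1 for 15294 (98.9%). 480 genes had an unadjusted p under 0.05, 3.1% of those tested. The smallest p among genes higher with 13-HDHEA in all 3 experiments were those of the zinc finger gene Zfp773 (0.46, 95% interval 0.29 to 0.63), the chemokine gene Ccl28 (0.71, 0.36 to 1.06), the matrix gene Npnt (0.59, 0.30 to 0.88) and the matrix gene Adamtsl4 (0.46, 0.23 to 0.70). Their adjusted p was 0.43 for Zfp773 and 1 for the rest in limma. Of the 24 genes, 16 had an isomer interval within 0.5 of zero and 23 within 1. For 6 of the 24 the unadjusted interval left out zero (Mnd1, Aipl1, Plg, Slc16a14, Ptprf and Cypt12), and in 19 of 24 the difference from vehicle was larger with 13-HDHEA than with 16-HDHEA. The 24 were chosen on an average that holds both compounds, and the same share over all tested genes was not counted. Over all tested genes, 112 differed from vehicle by more than 0.5 with 13-HDHEA and 93 with 16-HDHEA. Whether 1 compound acts more strongly was not tested. The isomer difference was 0.0087 (-0.19 to 0.20) for Ifitm2 and -0.01 (-0.20 to 0.18) for Creb3l2.

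Set against vehicle one at a time, 13-HDHEA changed 1 gene, Mnd1 (0.00646%, adjusted p = 0.00091), 16-HDHEA changed 0 (0%, with 460 genes at an unadjusted p under 0.05) and the combination 0 (0%, with 539) in limma. The combination carries 2.5 µM of each compound, so its values stand beside those of the single compounds without a comparison. The 3 treatments share the vehicle arrays, and an unusual vehicle array moves all of them.

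None of the 13 genes named in every case passed in the pooled comparison. Mnd1, whose interval left out zero, is described above, and most intervals of the other 12 were narrow. Most of the 12 are genes by which the inflammatory response to LPS is usually followed. Tnf, the central inflammatory cytokine, was at 12.65, 12.49 and 12.41 with vehicle and 12.40 to 12.54 (median 12.43) with HDHEA, a difference of -0.05 (95% interval -0.20 to 0.10). Il6 was at 10.88, 10.78 and 10.79 against 10.47 to 10.94 (median 10.74), a difference of -0.09 (-0.32 to 0.14). In both genes the HDHEA and vehicle arrays overlapped. Il1b differed by 0.01, the chemokine gene Ccl2 by 0.01, and the heme oxygenase gene Hmox1 by -0.0027, and the direction of these 3 differences turned under other scalings. Ptgs2, which encodes the inducible cyclooxygenase that can make these compounds, differed by 0.07 (-0.20 to 0.33).

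**Figure D3:**
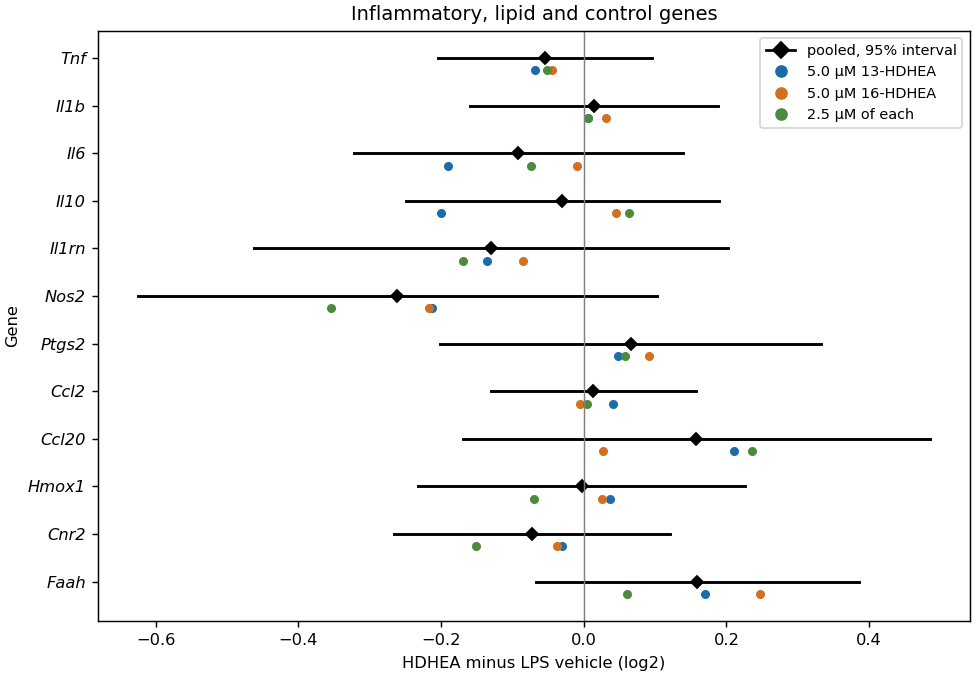
Pooled HDHEA minus vehicle (log2, x axis) with its 95% interval for 12 genes (y axis), and below each the differences of the single treatments. Every interval covers zero, and that of Nos2 alone reaches beyond 0.5.

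Of these 12 genes, which include the endocannabinoid genes Faah and Cnr2, 11 had a pooled interval within 0.5 of zero. Each had an adjusted p of 0.9999 in limma. The widest was that of Nos2, the inducible nitric oxide synthase. It stood at 9.60, 9.16 and 9.47 with vehicle and 8.72 to 9.58 (median 9.14) with HDHEA. Each HDHEA array lay below the vehicle array of its experiment, yet the groups overlapped, and the difference was -0.26 (95% interval -0.63 to 0.10). Ccl20, a chemokine gene that attracts cells with the receptor CCR6, differed by 0.16 (95% interval -0.17 to 0.49), and Il10, a cytokine gene at percentile 49.1 on the vehicle arrays, by -0.03 (-0.25 to 0.19). The interleukin-1 receptor antagonist gene Il1rn was also lower on 9 of 9 arrays, at -0.13 (-0.46 to 0.20).

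As a list, 14 of 17 pro-inflammatory cytokine genes lay below zero, with a median of -0.06 against -0.0044 over all tested genes, and none passed. The 95% interval lay within 0.5 of zero for only 9 of the 17, against 88.4% of all tested genes. The widest bound in the list was 1.08. Tnfsf15, the ligand of death receptor 3, had the smallest p, at -0.28 (95% interval -0.47 to -0.09), with all 9 HDHEA arrays below the vehicle range. The macrophage growth factor gene Csf1 (-0.26) and the interleukin-23 subunit gene Il23a (-0.32), named after their values were seen, were also lower on all 9 arrays. The list medians by treatment were -0.13 with 13-HDHEA, -0.0063 with 16-HDHEA and -0.08 with the combination. Chemokine genes were split evenly, 9 above and 10 below zero with a median of -0.0043, from Cxcl11 at -0.24 to Cxcl3 at 0.35. Their interval lay within 0.5 of zero for 12 of 19 genes, with the widest bound at 1.29. Of 19 anti-inflammatory and feedback genes 11 lay above zero (median 0.02), with the NF-kB regulator gene Bcl3 at 0.12 and the JAK inhibitor gene Socs1 at 0.15, and of 18 nitric oxide and host defence genes 11 lay below it (median -0.02), with the arginine transporter gene Slc7a2 at -0.13 and the arginase gene Arg1 at 0.24.

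Type I interferon-stimulated genes had the lowest median of the 22 lists examined, although no member passed. Of 31 tested genes 26 lay below zero, and their median was -0.14 against -0.0044 over all tested genes. LPS against no LPS, with the same vehicle arrays in both comparisons, raised 29 of the 31. 11 of them were lower than vehicle on all 9 HDHEA arrays, where 2.14% of all tested genes were: Ifit1, Ifit2, Cmpk2, Rsad2, Oasl2, Zbp1, Herc6, Ifih1, Parp14, Usp18 and Xaf1. They include the RNA-binding Ifit proteins, viperin (Rsad2), the RNA sensor MDA5 (Ifih1), the nucleic acid sensor Zbp1 and the deconjugating enzyme of ISG15 (Usp18).

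Ifit1 had the largest difference of the list. It stood at 9.31, 9.91 and 10.01 on the vehicle arrays of experiments 1, 2 and 3. The 9 HDHEA arrays ran from 8.78 over a median of 9.35 to 9.73, and cells without LPS were at 5.73 ± 0.14 (SD, n = 3). The groups overlapped, and within each experiment the vehicle array was the highest of the 4 LPS arrays. Pooled over treatments Ifit1 lay at -0.42 against vehicle (SE 0.22), and the 95% interval of -0.88 to 0.05 covered zero in the fit without a block. With experiment as a block its unadjusted p in limma was 0.0014, against 0.077 without it. The adjusted p with the block was 0.65. Ifit2 differed by -0.31 (SE 0.13), Cmpk2 by -0.31 (SE 0.21) and Rsad2 by -0.29 (SE 0.24). With the block their unadjusted p in limma was 0.0014, 0.0012 and 0.071, and none passed after adjustment.

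Many interferon-stimulated promoters are known to hold a sequence that the interferon-activated factor ISGF3 and its relatives bind, and its core was looked for here. The motif searched was GAAANNGAAA on both strands. Of 32851 mouse promoters in RefSeq (GRCm38.p6, 250 bases before to 50 after the start), 3.44% held it. Of the 31 listed genes 23 had a promoter in that table, and 13 of these genes held the motif in at least 1 promoter. The 3.44% counts promoters and the 13 counts genes, so the shares are not in the same unit. Among the 13 were Ifit1 with 2 matches and Rsad2 with 1, while the promoter of Cmpk2 held none. Those of Ifit1 and Rsad2 are shown 5′ to 3′ on the strand of the gene to let a reader see where the matches lie, which are in capitals.
Ifit1 promoter, GRCm38.p6 chr19:34640639-34640938, plus strand: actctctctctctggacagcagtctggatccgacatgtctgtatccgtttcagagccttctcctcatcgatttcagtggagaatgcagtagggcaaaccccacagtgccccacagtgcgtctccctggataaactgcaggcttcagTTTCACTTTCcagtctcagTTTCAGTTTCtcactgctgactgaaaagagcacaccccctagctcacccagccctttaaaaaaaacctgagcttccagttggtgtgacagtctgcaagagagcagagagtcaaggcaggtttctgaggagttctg
Rsad2 promoter, GRCm38.p6 chr12:26456403-26456702, minus strand: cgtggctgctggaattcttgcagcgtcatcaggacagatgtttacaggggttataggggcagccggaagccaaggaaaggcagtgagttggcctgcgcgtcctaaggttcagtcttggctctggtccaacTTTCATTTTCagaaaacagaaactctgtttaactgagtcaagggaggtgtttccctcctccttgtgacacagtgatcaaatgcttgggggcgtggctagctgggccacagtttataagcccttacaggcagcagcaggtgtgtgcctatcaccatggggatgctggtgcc
In both, the capitals read as the reverse complement of the motif. The Ifit1 matches are 10 bases each and the nearest begins 85 bases before the start site, while that of Rsad2 begins 120 bases before it. A match describes the letters, and binding was not measured.

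The shift of the list was seen in each experiment and with each treatment, but its size moved when a vehicle array was left out. Its mean difference was -0.11, -0.18 and -0.12 in experiments 1, 2 and 3, with 23, 26 and 27 of 31 genes below zero. By treatment the median was -0.12 for 13-HDHEA, -0.08 for 16-HDHEA and -0.17 for the combination. The mean level of the 31 genes was 8.64, 8.90 and 8.86 on the vehicle arrays and between 8.50 and 8.82 on the HDHEA arrays. In experiment 2, where the vehicle array had the highest level of all 12, the HDHEA arrays were at 8.67, 8.81 and 8.68. Without that vehicle array the median was -0.07, and 25 of 31 genes still lay below zero. That leaves the HDHEA arrays of experiment 2 without their partner. With all of experiment 2 left out the median was -0.11, and 28 of 31 genes lay below zero. Without the vehicle array of experiment 1 it was -0.20, again with 28 of 31 below zero. With experiment as a block 5 of the 31 genes had an unadjusted p under 0.05, against 1 without it, and the lowest adjusted p was 0.62 in limma.

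**Figure D4:**
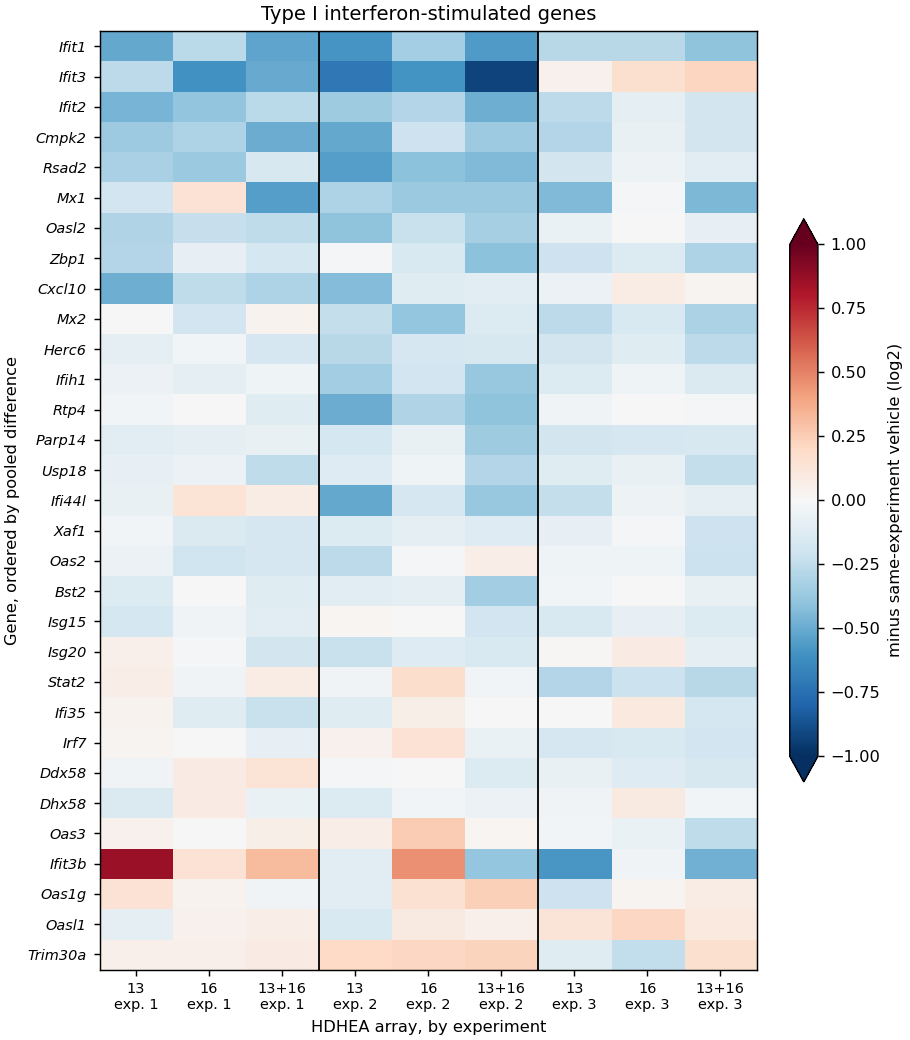
Each cell is 1 HDHEA array minus the vehicle array of its experiment (log2, colour scale from -1 to 1) for 31 interferon-stimulated genes (y axis) on 9 arrays (x axis, grouped by experiment). Blue cells are lower with HDHEA; the rows of Ifit1, Ifit2, Cmpk2 and Rsad2 are blue on all 9 arrays, and Ifit3 and Ifit3b change sign between experiments.

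Not every interferon-stimulated gene followed. Trim30a (0.07), Oasl1 (0.05), Oas1g (0.04), Ifit3b (0.02) and Oas3 (0.01) were the 5 above zero, and all were within their error of it. Isg15 differed by -0.09 and Irf7, the interferon regulatory factor that sustains the response, by -0.05. Ifit3 and Ifit3b are near-identical neighbours whose probe sets may share signal, and both are uncertain. Ifitm2, above, belongs to an interferon-inducible family but was not on the list, and its difference was positive. The chemokine gene Cxcl10, an interferon target as well as a chemokine, was at -0.19 (95% interval -0.53 to 0.16).

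Genes of lipid mediator synthesis bear on the compounds themselves, which are oxygenated fatty acid amides. Of 22 cyclooxygenase, lipoxygenase and oxylipin genes 12 lay above zero (median 0.0064) and none passed, but 3 were higher on all 9 arrays, where 1.75% of all tested genes were. Alox5 encodes 5-lipoxygenase, with which leukotriene synthesis begins. It was at 5.53, 5.07 and 5.35 with vehicle and 5.40 to 5.99 (median 5.88) with HDHEA. The groups overlapped across experiments and not within them. Its difference was 0.43 (SE 0.16, 95% interval 0.08 to 0.78), at 0.43, 0.41 and 0.45 for 13-HDHEA, 16-HDHEA and the combination. The unadjusted p of Alox5 in limma was 0.019, and 0.0011 with experiment as a block (adjusted p = 0.62). LPS against no LPS gave -2.52 for Alox5. The LPS and the HDHEA differences share the vehicle arrays.

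Ltc4s, which makes leukotriene C4 downstream of Alox5, showed a similar step. It stood at 5.10, 4.95 and 4.86 with vehicle and 5.09 to 5.65 (median 5.33) with HDHEA, a difference of 0.38 (SE 0.11, 95% interval 0.15 to 0.61). For LPS against no LPS Ltc4s stood at -0.80, again with the vehicle arrays in both comparisons. Pla2g7, the phospholipase that inactivates platelet-activating factor, differed by 0.26 (-0.02 to 0.53), and LPS had raised it. Its unadjusted p in limma was 0.065, and 0.0062 with experiment as a block (adjusted p = 0.79). Alox5ap, the membrane partner of the lipoxygenase, differed by 0.03, and the leukotriene A4 hydrolase gene Lta4h by -0.06, both named after their values were seen.

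Genes that make, break down or sense N-acyl ethanolamines were evenly split, 11 above and 11 below zero, with a median of 0.0025 and none passing. Faah, the hydrolase that degrades N-acyl ethanolamines, was at 4.48, 4.50 and 4.51 with vehicle and 4.51 to 4.99 (median 4.57) with HDHEA, a difference of 0.16 (95% interval -0.07 to 0.39). The cannabinoid receptor gene Cnr2 differed by -0.07 (-0.27 to 0.12). The lipid receptor gene Gpr55 had 0.31 (0.06 to 0.57) at percentile 48.7 on the vehicle arrays, with 2 of 9 arrays below vehicle. Gpr55 differed by 0.54 with 13-HDHEA and 0.07 with 16-HDHEA, an isomer difference of 0.46 (95% interval 0.15 to 0.77, adjusted p = 1 in limma). The ion channel gene Trpv4 had -0.31 (-0.60 to -0.03). Naaa, the acid amidase of the pathway, was lower on all 9 arrays at -0.18, and Inpp5d higher on all 9 at 0.09, both named after their values were seen. Of 9 receptor genes for omega-3 lipids and their mediators 5 lay below zero, among them the retinoid X receptor gene Rxra at -0.22 (-0.48 to 0.04).

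PPAR targets and fatty acid oxidation genes were also evenly split, 9 above and 9 below zero with a median of -0.0087. Plin2, the coat protein of lipid droplets, was higher within each experiment, at 10.41, 10.63 and 10.19 with vehicle and 10.44 to 10.97 (median 10.70) with HDHEA. Its difference was 0.30 (SE 0.11, 95% interval 0.06 to 0.53), largest for 13-HDHEA at 0.36 and 0.22 for 16-HDHEA, and the interval of 13-HDHEA minus 16-HDHEA covered zero (-0.15 to 0.43). Cpt1a, which carries fatty acids into mitochondria, was at 6.72, 6.74 and 6.49 against 6.65 to 7.14 (median 6.97), a difference of 0.26 (0.06 to 0.47). With experiment as a block the unadjusted p in limma was 0.00052 for Plin2 and 0.0029 for Cpt1a, against 0.018 and 0.016 without it. The adjusted p with the block was 0.62 and 0.73. Acot2, a mitochondrial thioesterase gene, went the other way at -0.26 (-0.58 to 0.05) and was lower on all 9 arrays. Liver X receptor targets, cholesterol synthesis genes and fatty acid synthesis genes had medians of 0.02, 0.0017 and 0.02, with 6 of 11, 10 of 19 and 9 of 16 above zero.

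The genes by which cells answer misfolded protein and other stress in the endoplasmic reticulum lay below zero in 19 of 24 cases, with a median of -0.04 and none passing. The median was -0.02 without experiment 1 and -0.06 without experiment 3. 5 were lower on all 9 arrays (2.14% of all tested genes were): Hspa5, Herpud1, Ppp1r15a, Ddit3 and Eif2ak3. Hspa5, the chaperone BiP, was at 10.32, 10.34 and 10.25 with vehicle and 10.07 to 10.28 (median 10.12) with HDHEA, a difference of -0.16 (SE 0.066, 95% interval -0.30 to -0.02). Herpud1, a component of protein degradation at the endoplasmic reticulum, differed by -0.19 (-0.36 to -0.0049) and the co-chaperone gene Dnajb9 by -0.25 (-0.45 to -0.04). The master regulators Atf4 and Atf6 differed by -0.0012 and -0.00013, and with arrays centred on their median 16 of 24 lay below zero.

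The endoplasmic reticulum stress element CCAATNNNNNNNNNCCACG, searched on both strands, stood in 0.119% of the 32851 promoters and in 5 of the 23 promoters found for this list. Hspa5 is shown because it is the textbook carrier of that element and the brightest of the genes lower on all 9 arrays. Its single match, in capitals, begins 65 bases before the start.
Hspa5 promoter, GRCm38.p6 chr2:34771840-34772139, plus strand: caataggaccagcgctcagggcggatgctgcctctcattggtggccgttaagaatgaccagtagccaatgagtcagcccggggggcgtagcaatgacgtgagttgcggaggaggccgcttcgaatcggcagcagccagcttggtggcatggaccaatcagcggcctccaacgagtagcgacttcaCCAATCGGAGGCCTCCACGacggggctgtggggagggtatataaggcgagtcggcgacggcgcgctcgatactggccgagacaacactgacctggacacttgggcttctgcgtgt

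The remaining lists stayed close to the median of all genes. Of 29 cell cycle genes, all of which LPS had lowered, 15 lay above zero (median 0.0040). Of 17 meiotic and recombination genes 11 lay below zero (median -0.01). Beside Mnd1 the smallest p there were those of the repair gene Palb2, at -0.26 and lower on all 9 arrays, and the meiotic gene Msh4, at -0.20. NRF2 and glutathione genes lay above zero in 12 of 18 cases (median 0.01), and macrophage identity genes in 13 of 18 (median 0.03), with the Fc receptor gene Fcgr3 at 0.24 (95% interval 0.03 to 0.45). Of 10 osteoclast genes 6 lay below zero (median -0.01), among them Clcn7, a lysosomal chloride transporter gene, at -0.22 (-0.39 to -0.06).

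Markers of other cell types had no passing member either. Over longer marker lists, all 4 tested neutrophil markers lay above zero, with a median of 0.16. 2 of these 4 were also raised by LPS, with the same vehicle arrays in that comparison. Ly6g and Mpo averaged percentiles 35.5 and 32.6 on the vehicle arrays, while Mmp8 and S100a8 stood at 4.23 and 4.96, and the list mean was 3.58 to 4.02 with vehicle and 3.69 to 4.29 with HDHEA. Of 9 fibroblast markers 5 lay below zero (median -0.03), from Pdgfra at -0.44 (95% interval -1.04 to 0.16) to Thy1 at 0.22, with the smallest p for Dcn at 0.16 (0.0048 to 0.32). Dcn was dim, at percentile 40.7 with vehicle and 43.9 with HDHEA. Of 9 epithelial and endothelial markers 6 lay above zero (median 0.07), from Cdh5 at -0.28 (-0.54 to -0.03), the smallest p, to Krt18 at 0.19 (-0.08 to 0.47) and Kdr at 0.22 (-0.11 to 0.55). For lymphocyte markers 2 of 4 lay above zero (median 0.04). The part of these markers in the differences above was not tested.

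**Figure D5:**
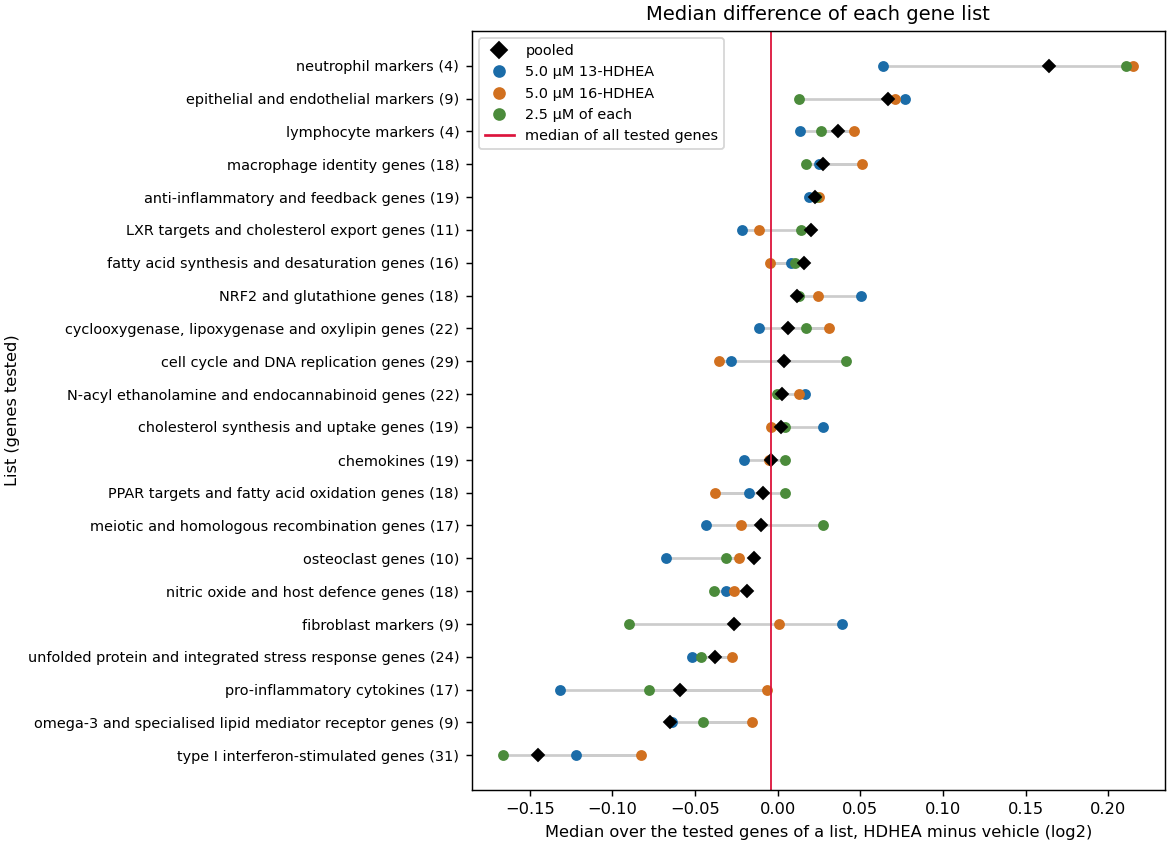
Median HDHEA minus vehicle difference (log2, x axis) over the tested genes of 22 lists (y axis, with the number of genes), pooled (diamonds) and for each treatment (circles). The red line is the median of all tested genes; the interferon-stimulated genes lie farthest below it, at -0.14, and the 4 neutrophil markers farthest above, at 0.16.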

How the data were processed

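Per the submitters' processing notes the authors made the deposited log2 values with RMA: background correction, quantile normalization of the arrays and a summary over the probes of each set. Neither a version nor a chip definition was found in the labels. A shift common to most genes is hidden by this normalization, and differences of dim probe sets are compressed. Of 41345 probe sets, 23521 had 1 gene symbol in the platform's gene table (1814 had several or none, 16010 were not listed), and 23328 of these were found in RefSeq. Of several probe sets of a gene the one with the highest mean was kept. A gene was tested where it exceeded the array's 40th percentile (3.16 to 3.22) on at least 3 arrays. Array medians were 3.62 to 3.69. With 3 arrays a group, their number sets the precision.

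Tests used limma 3.58.1 in R 4.3.3 on 1 model of 5 group means over 15 arrays (10 residual degrees of freedom, no block), two-sided, with Benjamini-Hochberg adjustment over 15468 genes and calls under 0.05. Pooled HDHEA is the mean of the 3 HDHEA groups. The code was tested on simulated data. Same-numbered arrays share an experiment identifier in the labels, and their deviations correlated between 0.0835 and 0.404 over 30 pairs, so the numbers pair the arrays, and the fit with a replicate block is an alternative (8 residual degrees of freedom). The SEs and intervals printed come from the fit without the block, so differences between experiments enter their error.

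Genes were named where called, up to 12 a direction; else by the smallest p with 9 differences of 1 sign (predicted and small RNA genes left out), up to 12 a direction; up to 3 members of a list by p; 13 fixed genes; and for the isomers, up to 4 a direction. Not every such gene is described. Compounds, lists and rules were chosen with earlier results of these data known.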

Additional observations from a re-analysis of the deposited data

Results flagged for a closer look

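Mnd1 differed between the compounds by test, at -1.105 for 13-HDHEA minus 16-HDHEA on the log2 scale (adjusted p = 0.0102 in limma). Of 65 genes examined, which do not include every gene named here, 3 (4.62%) had a single HDHEA array far from the other 8. Chance alone places about 1 in 20 groups there if the 9 arrays are alike. They come from 3 treatments and 3 experiments, so that rate is only a guide. Dnajb9, a co-chaperone gene, was highest at 8.844 on the combined array of experiment 3. Ch25h, which makes 25-hydroxycholesterol, was lowest at 3.69 on the 16-HDHEA array of experiment 3, and its pooled difference was -0.16. Srebf2, the master regulator of cholesterol synthesis, was lowest at 10.03 on the combined array of experiment 3, with a pooled difference of 0.07.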

How the results depend on the processing

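The count of 0 genes for the pooled difference held under each of 29 alternatives, with a lowest adjusted p of 0.0774 in limma (Mnd1, without the combined treatment). A whole treatment left out was left out of the average only, and its arrays stayed in the fit. The replicate block left the counts of calls for the HDHEA and isomer comparisons as they were and gave 2420 higher and 2893 lower genes for LPS. The 1 gene called between the isomers became 0 to 1 when single arrays were left out, and 0 with the replicate block and only the 12 LPS arrays. The interferon median of -0.14 ran from -0.20 to -0.066 over single arrays and experiments left out, and the stress response median of -0.04 from -0.058 to -0.025, chosen after seeing the data; the cause was not tested. Uncalled differences near zero turned sign: Il10 was 0.054 and Ccl2 -0.000302 without 13-HDHEA, Ccl2 was -0.0031 and Il1b -0.0023 with quantile normalization repeated, and Hmox1 was 0.0091 with arrays centred and 0.031 without the combined treatment. With arrays or experiments left out, they ran from -0.108 to 0.013 (Tnf), -0.078 to 0.023 (Il10), -0.013 to 0.033 (Ccl2), -0.020 to 0.051 (Il1b) and -0.069 to 0.084 (Hmox1). Intervals were wider for dim genes: 78.3% lay within 0.5 of zero below the 50th percentile, against 96.6% above the 75th.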
